A study of Mus musculus with 12 samples.

Results

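The libraries compared here are the 3 hearts of mice taken 1 day after delivery and the 3 hearts of mice that were not bred, all fed the control diet. They make up 6 of the 12 libraries of the study, chosen by the labels for diet and time point, and every gene that passed a filter on low counts was tested. All mice were wild-type C57BL/6J females (the strain is also given as C57BL/6) aged 27 to 29 weeks when killed, and all ate a purified diet for 15 weeks before some were bred. The control diet supplied 10% of its energy as fat. In the other 6 libraries, used here for comparison only, the mice ate a Western diet with 45% of its energy as fat and 17% as sucrose, again with 3 postpartum and 3 nonpregnant hearts. The study asked how pregnancy remodels the heart when the mother has features of metabolic syndrome; on the control diet, hearts 1 day after delivery are set against hearts of mice that were not bred, without that diet. Total RNA of heart tissue was sequenced in bulk. The labels do not say which part of the heart was taken or that each library came from a mouse of its own, so p-values measure the spread between libraries.

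During pregnancy the heart pumps a larger blood volume and its muscle grows, and after delivery it shrinks back towards its former size. Fibroblasts between the muscle cells build the collagen scaffold: fibrillar chains of types I, III and V are folded in the endoplasmic reticulum by chaperones, trimmed outside the cell by proteases and joined into stiff fibres by lysyl oxidases. Macrophages clear cell debris and matrix fragments and take part in turning this scaffold over.

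Postpartum hearts held more RNA for collagen chains, for the enzymes and chaperones that mature them, for macrophage complement genes, and for actin and tubulin proteins outside the contractile apparatus. The beta myosin heavy chain gene Myh7 and 4 other genes were lower. The changes were mostly small: 37 of 15476 genes passed the test (adjusted p below 0.05, 0.239% of those tested), 32 of them higher after delivery (0.207%) and 5 lower (0.0323%), and 3 of the 37 changed by at least 2-fold. The groups did not overlap in any of the 37, against 17.1% of all genes tested whose groups did not overlap. The 32 higher genes had a median log2 change of 0.60 on the control and 0.21 on the Western diet; they were chosen by the first of these values, and no gene passed the test of the difference between diets. Calls of single genes were fragile. Leaving out 1 of the 6 libraries at a time left between 0 and 205 genes past the threshold. All 37 kept their direction each time, which groups that do not overlap all but fix in advance.

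The 6 libraries held 22754591 to 29492416 counts, and a count of 0 (3 counts of the total, counting error only) allowed up to 0.0973 to 0.136 CPM, a gene's counts over the library's scaled total, given per fixed number of counts. Mitochondrial genes took 19.75% to 20.21% of counts in nonpregnant and 19.165% to 19.427% in postpartum hearts. Heart muscle genes were abundant in all 6 (Myh6, the alpha myosin heavy chain, at 31300 to 36700 CPM), and the fast skeletal myosin Myh4 lay between 0.162 and 0.378 CPM. A list of 12 atrial genes summed to 708 to 829 CPM, most of it from Clu at 498 to 588 CPM. Nppa was at 61.6 to 98.8 CPM and Kcnj3 at 55.5 to 86.7 CPM, but Myl7, Sln and Bmp10 lay between 0 and 0.194 CPM. The lung surfactant genes Sftpa1 and Sftpd were at 0 in all 6, but others such as Sftpb were not. The list of 8 lung epithelium markers summed to 0.612 to 1.28 CPM. Postpartum 3 and nonpregnant 1 stood apart from their groups. Postpartum 3 held fat cell RNA, with Ucp1 at 73.0 CPM against 0 to 0.544 in the other 5, Adipoq at 19.6 against 0.126 to 0.542 and Cfd at 72.5 against 0.317 to 1.51. Nonpregnant 1 lay beside the postpartum libraries on the first principal component of the 6 (35.4% of the variance): its score was -4.50, against 22.3 and 28.2 for nonpregnant 2 and 3 and -20.7, -4.23 and -21.0 for the postpartum libraries. The numbers in the library titles are lower for every postpartum than for every nonpregnant library; the labels do not say what they stand for, and whatever follows them cannot be told apart from pregnancy.

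**Figure D1:**
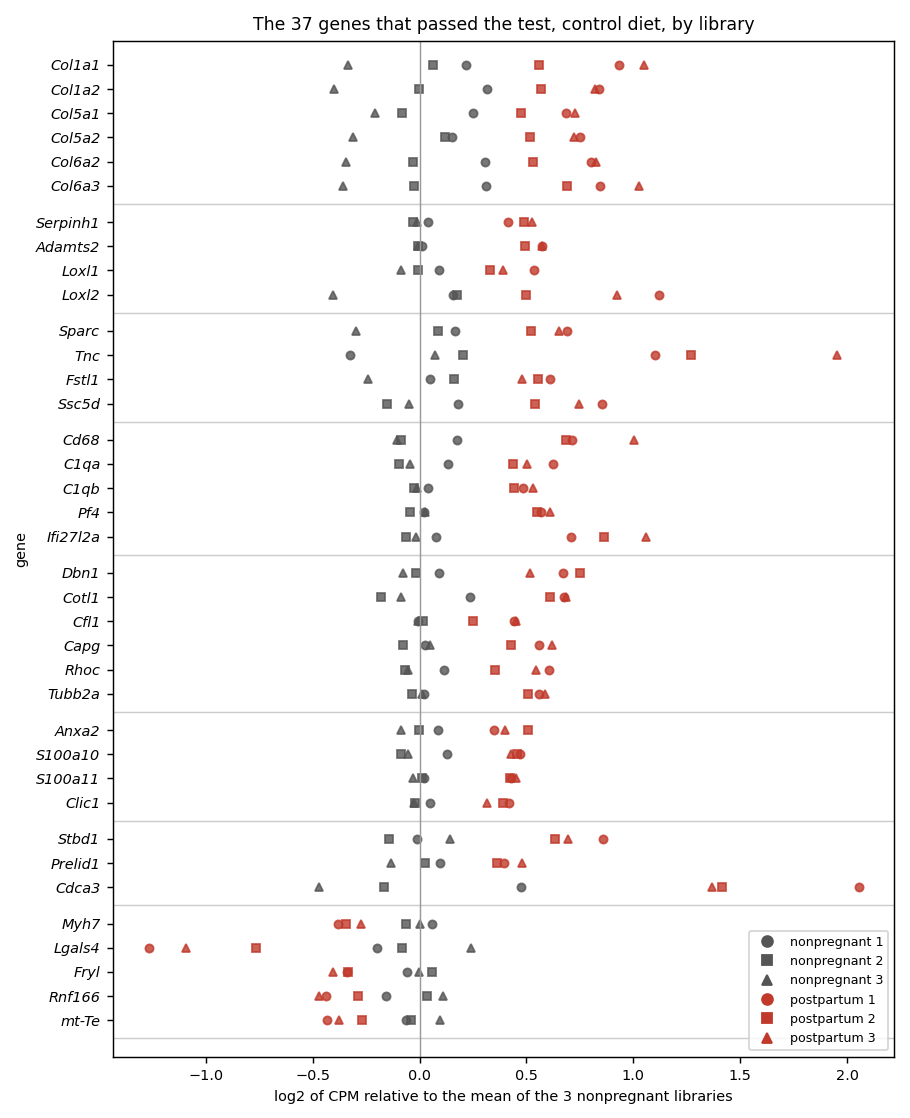
Each of the 37 genes that passed the test, grouped by role, with 1 point per library. The horizontal axis is the log2 of CPM relative to the mean of the 3 nonpregnant libraries, grey for nonpregnant and red for postpartum, and for every gene the red points lie entirely to one side of the grey points, as they did for 17.1% of all genes tested.

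After delivery 6 collagen chain genes rose, with a median log2 change of 0.74. They were both chains of type I collagen, the main fibre of the heart's scaffold (Col1a1 and Col1a2), both main chains of type V, which starts and thins those fibres (Col5a1 and Col5a2), and 2 chains of type VI, a beaded network around cells (Col6a2 and Col6a3). Col1a1 (ENSMUSG00000001506, chromosome 11, 94936224 to 94953042, plus strand, GRCm38) had 78.5, 70.7 and 53.6 CPM in nonpregnant 1 to 3 and 129, 99.7 and 140 CPM in postpartum 1 to 3. Every postpartum heart was above every nonpregnant heart, and the 1.82-fold difference (log2 change 0.86, SE 0.15) had an adjusted p of 0.0409. Col1a2 read 114, 91.5 and 69.5 CPM in nonpregnant and 164, 136 and 162 CPM in postpartum hearts (log2 change 0.75, SE 0.14, adjusted p = 0.0436). In both genes nonpregnant 1 was the highest and nonpregnant 3 the lowest of their group. Col6a3, the long chain of type VI, had 44.9, 35.5 and 28.2 CPM in nonpregnant and 64.9, 58.3 and 73.8 CPM in postpartum hearts, a 1.81-fold rise (adjusted p = 0.0317). Its partner Col6a2 had 60 to 94.2 CPM in nonpregnant and 110 to 135 CPM in postpartum hearts (log2 change 0.72). For the type V chains, Col5a1 lay between 36.5 and 50.2 CPM in nonpregnant and between 58.5 and 69.8 CPM in postpartum hearts (log2 change 0.63), and Col5a2 between 19.9 and 27.4 CPM and between 35.3 and 41.5 CPM (log2 change 0.66). In a bulk sample, more cells of a type cannot be told apart from more RNA per cell. Among 17 fibroblast markers none passed the test, 14 had a positive change and the median log2 change was 0.21.

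Other collagen genes lay just outside the threshold. Col3a1, the chain of type III collagen that is laid down early in new matrix, had 163, 118 and 76.1 CPM in nonpregnant and 313, 197 and 372 CPM in postpartum hearts. That is 2.47-fold on the fitted scale, but the 3 libraries within each group differed so much that the adjusted p was 0.0528, the smallest of any gene outside the threshold and shared with Thbs1, Uhrf1 and Emilin1. Col6a1, the third main chain of type VI, had 76.6 ± 16.6 CPM (SD, n = 3) in nonpregnant and 115 ± 12.6 CPM in postpartum hearts, with an adjusted p of 0.0883. Col16a1 (adjusted p = 0.0692), which links fibres to cells, had 6.39 to 8.24 CPM and 10.1 to 11.9 CPM. Postn, a matricellular protein of activated fibroblasts, had 35.5, 29.1 and 22.0 CPM and 63.9, 39.6 and 52.9 CPM (adjusted p = 0.0692). Of the 8 fibrillar collagen genes tested 4 passed and 7 had a positive change, with a median log2 change of 0.71, against -0.007 over all genes tested, 48.2% of which had a positive change. Of 26 other collagens 2 passed, 22 were positive and the median was 0.33. Gene lists here and below were chosen with earlier results of these data known, so their counts are no separate support for the called genes. Summed over the fibrillar collagens, nonpregnant hearts held 465, 372 and 281 CPM and postpartum hearts 762, 558 and 832 CPM.

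Of the genes that mature collagen, 4 rose. Serpinh1 (ENSMUSG00000070436, chromosome 7, 99345376 to 99353239, minus strand), the collagen-specific chaperone of the endoplasmic reticulum, had 192, 183 and 185 CPM in nonpregnant and 249, 262 and 269 CPM in postpartum hearts. The libraries of each group lay close together, and the 1.39-fold rise (log2 change 0.48, SE 0.07) shared the smallest adjusted p of the comparison, 0.0199, with Stbd1 and S100a11. Adamts2, the protease that removes the amino-terminal propeptide of procollagens, had 21.5, 21.2 and 21.2 CPM against 31.7, 30 and 31.7 CPM (log2 change 0.55, adjusted p = 0.0317). The lysyl oxidase family members Loxl1 and Loxl2, which cross-link elastin and collagen, also rose. Loxl1 had 33.2 to 37.6 CPM and 44.3 to 51.1 CPM (log2 change 0.42, adjusted p = 0.0436). Loxl2 was less even, with 14.5, 14.7 and 9.84 CPM against 28.3, 18.4 and 24.7 CPM (log2 change 0.87, adjusted p = 0.0485, with Col5a1 the largest among the 37). The family was not uniform. Of 30 genes for folding, trimming and cross-linking, these 4 passed, 22 had a positive change and the median log2 change was 0.13. Adamts3, a close relative of Adamts2 with the same kind of substrate, had 4.46, 5.84 and 5.44 CPM in nonpregnant and 3.88, 3.41 and 3.57 CPM in postpartum hearts, groups that did not overlap in the opposite direction (log2 change -0.53, adjusted p = 0.166). Pcolce, which speeds removal of the carboxyl-terminal propeptide, had 47.7 to 51.4 CPM and 59.7 to 62.1 CPM (adjusted p = 0.186).

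The windows around the start sites of Col1a2 and Serpinh1, a collagen chain and the chaperone that folds it, are shown because the pair rose together on the control diet. Each runs from 250 bases before to 50 bases after the RefSeq start site (GRCm38.p6), written 5′ to 3′ on the gene's own strand. Col1a2 is chr6:4505368-4505667, plus strand, with the CCAAT box (CCAAT, either strand) in capitals; Serpinh1 is chr7:99353190-99353489, minus strand, with the GC box (GGGCGG, either strand) in capitals.
Col1a2: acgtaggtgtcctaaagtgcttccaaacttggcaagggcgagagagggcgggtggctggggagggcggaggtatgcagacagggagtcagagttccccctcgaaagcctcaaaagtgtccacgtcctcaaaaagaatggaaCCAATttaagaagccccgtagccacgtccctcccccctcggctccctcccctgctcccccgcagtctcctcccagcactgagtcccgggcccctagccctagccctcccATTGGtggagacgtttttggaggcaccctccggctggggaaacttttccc
Serpinh1: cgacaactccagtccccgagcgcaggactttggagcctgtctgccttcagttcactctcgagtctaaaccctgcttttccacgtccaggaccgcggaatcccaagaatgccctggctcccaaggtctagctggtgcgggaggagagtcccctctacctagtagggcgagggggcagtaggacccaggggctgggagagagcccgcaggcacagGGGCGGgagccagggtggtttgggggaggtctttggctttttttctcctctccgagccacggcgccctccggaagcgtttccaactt
Col1a2 holds 2 CCAAT boxes, at 109 bases before the start site and at the start site, and Serpinh1 1 GC box at 37 bases before it. The Col1a2 window also holds GGGCGG, which is not in capitals there. The RefSeq start site of Col1a2 lies 804 bases from the gene start used for counting, and that of Serpinh1 0 bases from it. RefSeq windows were found for 27 of the 37 genes, and 6 motifs were searched on both strands, each counted alone even where matches overlap. CCAAT was in 8 of the 27 windows (29.6%) and in 38.3% of all 11189 windows, and GGGCGG in 19 (70.4%) and 62.7%. TATAAA was in 11.1% and 7.42%, TTTGAA in 7.41% and 11.7%, CACGTG in 7.41% and 10.0%, and TGANTCA in 14.8% and 4.94%. The last share is 4 genes.

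Among other proteins of the matrix, Sparc, Fstl1, Ssc5d and Tnc rose. Sparc, a collagen-binding matricellular protein, was the most abundant, with 299, 283 and 217 CPM in nonpregnant and 429, 382 and 418 CPM in postpartum hearts (log2 change 0.62, adjusted p = 0.034). Fstl1, a secreted glycoprotein of fibroblasts, had 84.0, 90.7 and 68.7 CPM against 124, 119 and 113 CPM (log2 change 0.55, adjusted p = 0.0364). Ssc5d, a secreted scavenger receptor, had 8.03, 6.38 and 6.85 CPM against 12.8, 10.3 and 11.9 CPM. Ssc5d overlaps Sbk2 on the opposite strand, and Sbk2 had 6.88 ± 1.07 and 5.93 ± 0.855 CPM (SD, n = 3); no strand setting of the counting is given in the sources used here. Tnc (ENSMUSG00000028364), tenascin C, a matrix protein of embryonic and injured tissue that adult heart muscle nearly lacks, had 0.963, 1.39 and 1.27 CPM in nonpregnant and 2.59, 2.91 and 4.67 CPM in postpartum hearts. Its 2.83-fold rise (log2 change 1.5, SE 0.28, adjusted p = 0.0436) was the second largest of the 37, at a low level. Thbs1, thrombospondin 1, had 5.6, 4.91 and 4.76 CPM against 23.4, 10.4 and 9.96 CPM, with postpartum 1 far above the rest (adjusted p = 0.0528). Over 30 matricellular proteins and small proteoglycans 2 passed, 24 had a positive change and the median log2 change was 0.22.

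In the macrophage, platelet and interferon group 5 genes rose. C1qa and C1qb code for chains of C1q, the first component of complement, which tissue macrophages make. C1qb (chromosome 4, 136880129 to 136886187, minus strand) was even within groups, with 33.4, 31.9 and 32.2 CPM against 45.4, 44.1 and 46.9 CPM (log2 change 0.48, SE 0.09, adjusted p = 0.037). C1qa had 38.5 to 45.2 CPM and 55.8 to 63.4 CPM (log2 change 0.52, adjusted p = 0.0364). The neighbouring gene for the third chain, C1qc, changed as much on the log2 scale (0.52; 36.4, 30.3 and 31.8 CPM against 51.2, 44.2 and 46.3 CPM) but did not pass (adjusted p = 0.0795). Cd68, a lysosomal membrane protein of macrophages, had 7.10, 5.92 and 5.85 CPM against 10.3, 10.1 and 12.6 CPM, a 1.74-fold rise (adjusted p = 0.034). Pf4, platelet factor 4, a chemokine of platelets that some tissue macrophages also carry, had 9.63, 9.20 and 9.66 CPM against 14.1, 13.9 and 14.5 CPM (adjusted p = 0.0317). Of the 6 platelet and megakaryocyte genes tested, Pf4 alone passed, and 5 had a positive change with a median of 0.41. The summed level of the list was 14.0 to 15.3 CPM against 20.5 to 22.0 CPM, most of it from Pf4 itself. Besides Pf4, the groups of Gp1ba did not overlap (1.89 to 2.36 against 2.48 to 2.76 CPM), while those of Ppbp (0.357 to 0.966 against 0.930 to 1.30 CPM) and Itga2b (0.714 to 1.30 against 1.26 to 1.65 CPM) did. Ifi27l2a, an interferon-inducible gene, had 14.2, 12.9 and 13.3 CPM against 22.0, 24.5 and 28.1 CPM (log2 change 0.88, adjusted p = 0.037). It alone passed among 34 interferon-stimulated genes, 30 of which had a positive change around a median of 0.21. Of 25 macrophage and monocyte markers 3 passed and 22 were positive, with a median log2 change of 0.30. Their summed level was 1180 to 1240 CPM in nonpregnant and 1270 to 1370 CPM in postpartum hearts. Most of that sum came from Ctsd, whose groups overlapped (678 to 749 against 702 to 762 CPM), so it says little about the other markers. The groups did not overlap in 11 of the 25, against 17.1% of all genes tested. Mrc1 (log2 change 0.35, adjusted p = 0.176) and Folr2 (0.64, adjusted p = 0.181) were among these 11. The groups of Adgre1 (6.94 to 12.6 against 9.84 to 14.5 CPM) and Csf1r (26.1 to 45.7 against 38.5 to 45.4 CPM) overlapped. Of the T and NK cell markers 5 were tested and 2 were positive, and of the B and plasma cell markers 7 were tested and 1 was positive; none passed.

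In the cytoskeleton 6 genes of actin, tubulin and their regulators rose, none of them part of the sarcomere, the contractile unit of muscle. Cfl1, cofilin, which severs actin filaments, was the most abundant, with 112, 114 and 112 CPM in nonpregnant and 153, 134 and 154 CPM in postpartum hearts (log2 change 0.39, SE 0.06, adjusted p = 0.034). Dbn1, drebrin, which binds along actin filaments, had 9.67, 8.99 and 8.62 CPM against 14.5, 15.3 and 13 CPM (log2 change 0.64, adjusted p = 0.027). Cotl1, coactosin-like protein, also an actin binder, had 12.9, 9.66 and 10.3 CPM against 17.5, 16.7 and 17.6 CPM (log2 change 0.65, adjusted p = 0.0317). Capg, a filament-capping protein common in macrophages, had 11.8, 11 and 12 CPM against 17.1, 15.6 and 17.8 CPM (log2 change 0.54, adjusted p = 0.0364). Rhoc, a small GTPase that signals to actin, had 50.9, 44.8 and 45.2 CPM against 71.4, 60 and 68.4 CPM (log2 change 0.50, adjusted p = 0.034). In these 5 genes, as in all 37, the groups did not overlap. Tubb2a, a beta tubulin, had 21.1, 20.3 and 21.0 CPM against 30.6, 29.6 and 31.2 CPM (log2 change 0.55, adjusted p = 0.0364); its near-identical neighbour Tubb2b can share reads with it, so the split between the copies is uncertain.

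The wider families leaned the same way, mostly below the threshold. These lists hold the called genes and were chosen with earlier results of these data known, so they are no separate support. Of 38 actin-binding proteins outside the sarcomere 4 passed, 37 had a positive change, 24 had an unadjusted p below 0.05 (12.5% of all genes tested had one) and the median log2 change was 0.22. Tagln2 had 71.4, 55.1 and 51.5 CPM against 86.1, 83.9 and 75.9 CPM (adjusted p = 0.0943), and Arpc1b, a subunit of the branching complex Arp2/3, 52.7 to 54.6 CPM against 61.5 to 67.0 CPM (adjusted p = 0.0935). Of 22 tubulins and intermediate filament genes 1 passed and 20 were positive, with a median of 0.44. Tubb5 had 96.7, 99.2 and 88.5 CPM against 152, 130 and 138 CPM (adjusted p = 0.0737), and Vim, vimentin of fibroblasts and endothelium, 220, 187 and 156 CPM against 256, 257 and 266 CPM (adjusted p = 0.0692). The nonmuscle tropomyosin gene Tpm4 had 123, 96.1 and 98.8 CPM against 173, 140 and 163 CPM (adjusted p = 0.0716). Among 18 thin filament genes, a list that also holds Tpm4, none passed and the median was -0.05.

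Anxa2, S100a10, S100a11 and Clic1, which act at membranes, rose with little spread between libraries. Annexin A2 and the S100 protein S100a10 form a tight complex on the inner face of the cell membrane, and S100a11 is a calcium-binding relative of S100a10 that lies near it on chromosome 3 (93520488 to 93526287 and 93555080 to 93564643, both on the plus strand). S100a11 had 20.5, 20.4 and 19.8 CPM in nonpregnant and 27.2, 27.1 and 27.7 CPM in postpartum hearts (log2 change 0.43, SE 0.06, adjusted p = 0.0199). S100a10 had 25.4, 21.9 and 22.4 CPM against 32.2, 31.9 and 31.3 CPM (log2 change 0.45, adjusted p = 0.0317). Anxa2 had 61.7, 57.9 and 54.6 CPM against 74.0, 82.5 and 76.6 CPM (log2 change 0.42, adjusted p = 0.0317). The gap between groups was wider than the range within either group in Anxa2, S100a10, S100a11 and Clic1. Clic1, an intracellular chloride channel protein, had 28.7 to 30.3 CPM against 36.4 to 39.1 CPM (log2 change 0.37, adjusted p = 0.0436). Of 20 annexin and S100 genes 3 passed and 18 were positive with a median of 0.20; Anxa1 (20.5 ± 1.92 against 25.3 ± 1.13 CPM, SD, n = 3) and S100a6 (21.6 ± 1.59 against 26.6 ± 1.58 CPM) had adjusted p-values of 0.22 and 0.228.

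The windows of Anxa2 (chr9:69453433-69453732, plus strand) and S100a11 (chr3:93520246-93520545, plus strand) are shown because both hold the letters TGANTCA, the site bound by AP-1 factors, here in capitals. They are RefSeq GRCm38.p6 windows of the same kind as those of Col1a2 and Serpinh1, 5′ to 3′.
Anxa2: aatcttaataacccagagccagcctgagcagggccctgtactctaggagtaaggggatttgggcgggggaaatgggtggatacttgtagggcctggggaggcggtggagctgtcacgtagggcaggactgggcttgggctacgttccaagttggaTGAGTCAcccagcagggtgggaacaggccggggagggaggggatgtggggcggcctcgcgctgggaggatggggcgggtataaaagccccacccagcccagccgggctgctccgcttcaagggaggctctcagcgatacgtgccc
S100a11: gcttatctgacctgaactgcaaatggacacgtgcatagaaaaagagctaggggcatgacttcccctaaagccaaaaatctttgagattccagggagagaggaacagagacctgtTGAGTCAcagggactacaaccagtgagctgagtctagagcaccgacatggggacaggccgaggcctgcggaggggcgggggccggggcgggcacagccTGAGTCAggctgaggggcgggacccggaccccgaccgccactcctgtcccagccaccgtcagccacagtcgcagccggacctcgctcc
S100a11 holds 2 matches, at 136 and 38 bases before the start site, and Anxa2 1 match at 95 bases before it; Cd68 and Clic1 are the other genes of the 37 with a match. A match describes the letters only, since no binding was measured.

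Outside these groups 3 genes rose. Stbd1 (ENSMUSG00000047963), which tethers glycogen to membranes and brings it to the lysosome, had 9.78, 8.94 and 10.9 CPM in nonpregnant and 17.9, 15.3 and 16 CPM in postpartum hearts. Its 1.66-fold rise (log2 change 0.73, SE 0.10) had the smallest p of the comparison. It was the only one of 22 glycogen genes to pass, and their median log2 change was -0.09; Gaa, the lysosomal enzyme that breaks glycogen down, had 165 to 179 CPM against 140 to 152 CPM (adjusted p = 0.181). Prelid1, which carries lipid between mitochondrial membranes, had 27.4, 26.1 and 23.4 CPM against 33.7, 33.0 and 35.7 CPM (log2 change 0.41, adjusted p = 0.034). Cdca3, which is made in dividing cells and promotes entry into mitosis, had 0.785, 0.504 and 0.408 CPM against 2.35, 1.51 and 1.46 CPM. Its 3.06-fold rise (log2 change 1.62, SE 0.28, adjusted p = 0.037) was the largest of the 37.

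Cdca3 is not among the 45 cell cycle and DNA replication genes of the list, of which 44 were tested. None of those passed, and 40 had a positive change. An unadjusted p below 0.05 was found in 28 (against 12.5% of all genes tested), and the median log2 change was 0.69. This list too was chosen with earlier results of these data known, so its counts are no separate support. Top2a, the topoisomerase of dividing cells, had 5.10, 1.60 and 1.63 CPM in nonpregnant and 12.8, 5.46 and 6.91 CPM in postpartum hearts (adjusted p = 0.138). Mki67, the Ki-67 antigen, had 8.89, 2.35 and 2.13 CPM against 15.3, 8.48 and 9.08 CPM (adjusted p = 0.206). Birc5, survivin, had 0.785, 0.210 and 0.272 CPM against 2.14, 1.43 and 1.10 CPM (adjusted p = 0.0883), and E2f1, a driver of entry into DNA replication, 1.25, 1.22 and 0.726 CPM against 3.23, 2.05 and 2.63 CPM (adjusted p = 0.0692). In Top2a and Mki67 nonpregnant 1 stood well above nonpregnant 2 and 3 and close to postpartum 2. Without nonpregnant 1, 18 of the 44 genes passed, in a fit that called 205 genes of 15727 tested. Nonpregnant 1 was the highest nonpregnant library in Top2a, Mki67, Birc5 and E2f1, so leaving it out favours calls in such genes. Without nonpregnant 1 and postpartum 3, 10 passed, and without postpartum 3 alone none did. Without nonpregnant 2 or postpartum 1 no gene of any list passed, and without nonpregnant 3 only Stbd1 did. Which cells divide cannot be read from bulk RNA.

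**Figure D2:**
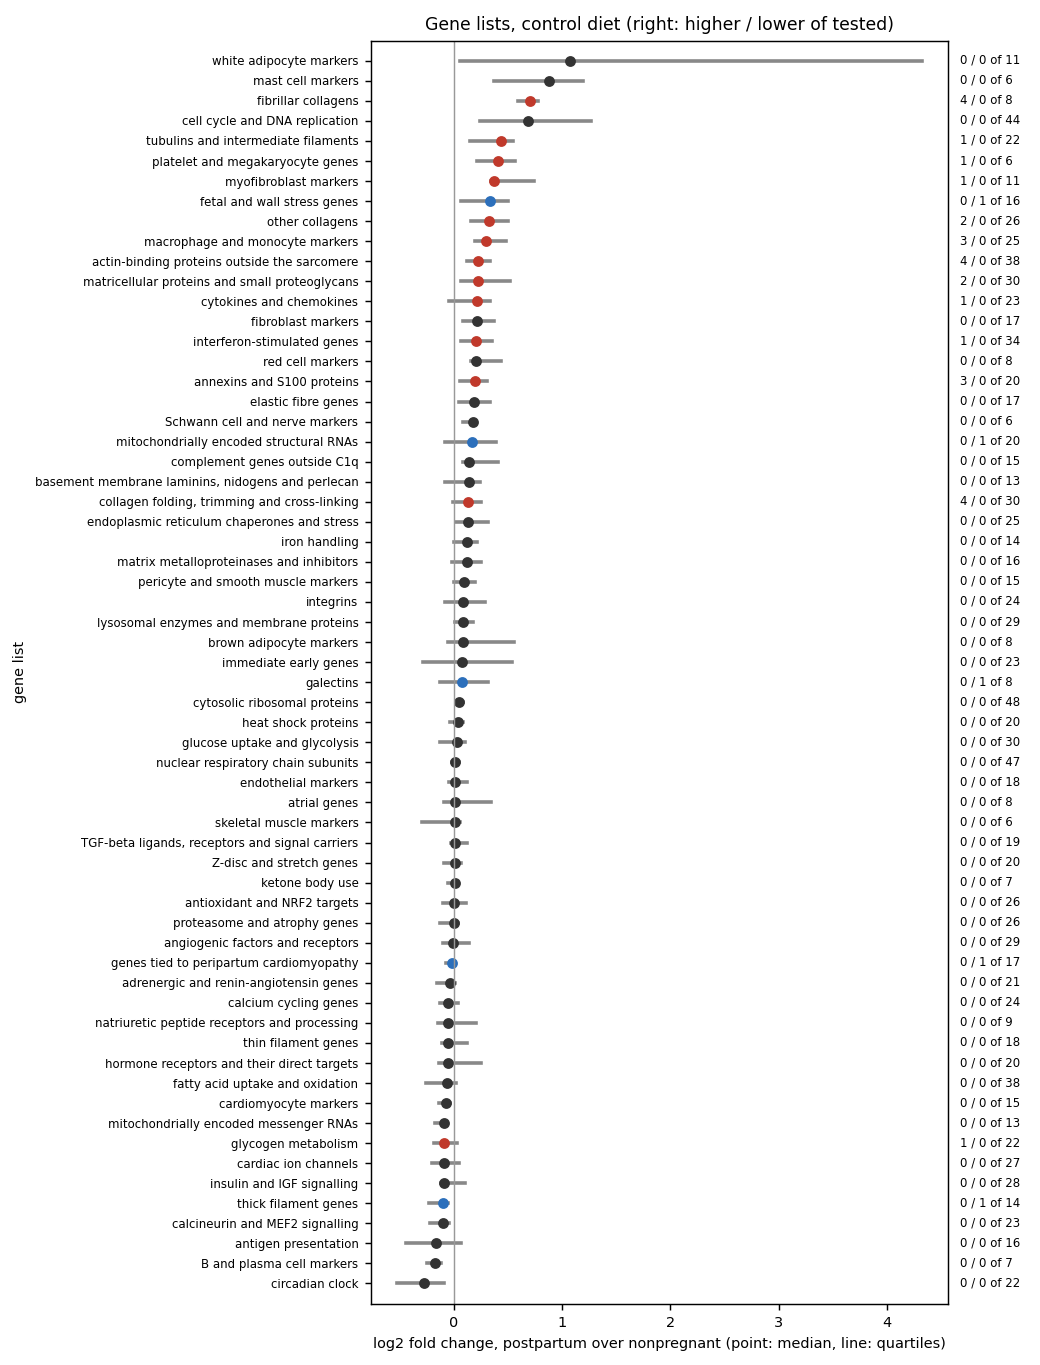
Each row is a gene list with at least 6 tested members: the point is the median and the line the quartiles of the log2 fold change, and the numbers on the right count genes that passed higher, passed lower and were tested. Points are red where a member passed higher and blue where one passed lower; fibrillar collagens (median 0.71), cell cycle genes (0.69) and tubulins (0.44) lie right of 0, the circadian clock (-0.28) lies left, and the white adipocyte median (1.07) becomes 0.15 without postpartum 3.

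The genes that fell numbered 5. Myh7 (chromosome 14, 54970688 to 54994634, minus strand), the beta myosin heavy chain, is the slow isoform of the fetal heart and a marker of the stressed adult heart. It had 505, 463 and 485 CPM in nonpregnant and 372, 382 and 400 CPM in postpartum hearts, a log2 change of -0.33 (SE 0.06, adjusted p = 0.0436). The antisense RNA Mhrt, which overlaps Myh7, had 72.0 to 94.1 CPM against 75.7 to 81.0 CPM, and the microRNA locus Mir208b inside Myh7 had 19.2 to 24.8 CPM against 19.0 to 20.4 CPM; for both, the groups overlapped. Myh6, a near-identical copy next to Myh7, had 33700, 36500 and 36700 CPM against 33600, 34800 and 31300 CPM (adjusted p = 0.577). Reads shared between these genes cannot be separated here. Of 14 thick filament genes Myh7 alone passed, 2 had a positive change and the median was -0.10. Myl2, the ventricular regulatory light chain, had 6710 to 6910 CPM against 5160 to 6170 CPM (log2 change -0.23, adjusted p = 0.209). Nppb, the B-type natriuretic peptide of the stretched ventricle, had 147, 101 and 72.0 CPM against 166, 288 and 297 CPM (log2 change 1.23, SE 0.43, adjusted p = 0.271). Of the 16 fetal and wall stress genes tested Myh7 alone passed, and 13 had a positive change, opposite to Myh7, with a median of 0.34.

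Lgals4, galectin 4, a sugar-binding lectin best known from the gut, showed the largest fall, with 54.5, 59.2 and 74.0 CPM in nonpregnant and 26.0, 36.8 and 29.3 CPM in postpartum hearts (log2 change -1.03, SE 0.16, adjusted p = 0.0317). Fryl had 48.2, 52.3 and 50.2 CPM against 39.7, 39.8 and 38 CPM (log2 change -0.36, adjusted p = 0.0364). Rnf166, a ubiquitin ligase, had 42.2, 48.2 and 50.8 CPM against 34.7, 38.6 and 34.0 CPM (log2 change -0.40, adjusted p = 0.0455). The mitochondrial transfer RNA gene mt-Te (MT, 14071 to 14139, minus strand) had 257, 261 and 287 CPM against 199, 223 and 207 CPM (log2 change -0.35, adjusted p = 0.037). It lies directly beside mt-Nd6, an abundant subunit gene of respiratory complex I, which had 5570, 6010 and 6130 CPM against 4350, 4900 and 4810 CPM (log2 change -0.33, adjusted p = 0.0791). Another complex I gene, mt-Nd5, had 17300, 17700 and 18200 CPM against 13700, 15300 and 14900 CPM (log2 change -0.28, adjusted p = 0.0883). In mt-Nd3 the postpartum libraries were the higher ones, with 77.2, 75.2 and 69.5 CPM against 114, 88.8 and 93.7 CPM (adjusted p = 0.162). The median over the 13 mitochondrial messenger RNAs was -0.09. Mitochondrial structural RNAs, the list that holds mt-Te, leaned the other way. In that list 20 were tested, mt-Te alone passed, 13 had a positive change and the median was 0.17. With library sizes that leave out mitochondrial genes, which also leaves mt-Te untested, 33 genes passed, all of them among the 37.

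The circadian clock was the list with the lowest median. Of 22 clock genes none passed, 4 had a positive change and 10 had an unadjusted p below 0.05, with a median log2 change of -0.28. The output gene Dbp had 133, 175 and 142 CPM in nonpregnant and 53.6, 105 and 94.7 CPM in postpartum hearts (adjusted p = 0.149). Ciart had 11.9, 24.3 and 15.8 CPM against 5.85, 9.49 and 8.76 CPM (adjusted p = 0.104), and Cry2, a repressor of the clock, 51.0, 56.0 and 49.8 CPM against 31.3, 44.0 and 33.0 CPM (adjusted p = 0.0737). The activator Arntl lay on the other side, with 3.18, 2.23 and 4.85 CPM against 9.15, 3.33 and 8.11 CPM, and its groups overlapped (adjusted p = 0.289). In all 4 genes postpartum 2 was the postpartum library nearest to the nonpregnant hearts. The labels do not give the hour at which each heart was taken, so it cannot be told apart from pregnancy.

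**Figure D3:**
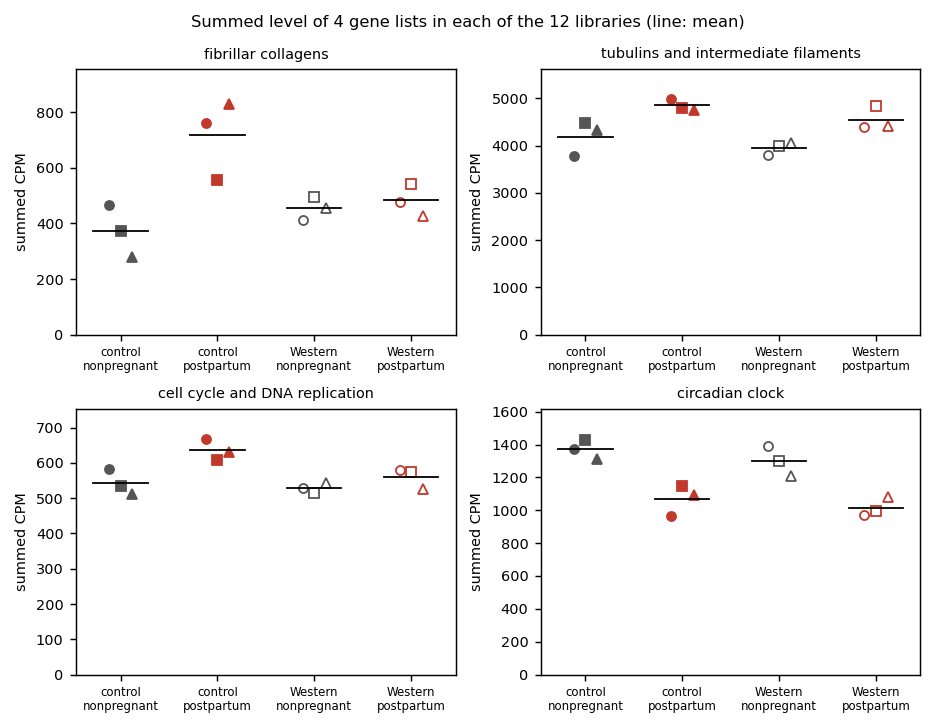
Summed CPM of 4 gene lists in each of the 12 libraries (marker shape is the replicate, the line is the group mean, filled markers are the control diet). On the control diet, fibrillar collagens were at 281 to 465 CPM in nonpregnant and 558 to 832 CPM in postpartum hearts and clock genes at 1310 to 1430 and 966 to 1150 CPM, and on the Western diet the fibrillar collagens of the groups overlapped, at 412 to 496 and 428 to 544 CPM.

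Lists with a median log2 change near 0 included 47 nuclear respiratory chain subunits (0.02), 48 cytosolic ribosomal proteins (0.04), 18 endothelial markers (0.01) and 15 cardiomyocyte markers (-0.07). None of their genes passed. A positive change was found in 28 of the 47, 43 of the 48, 11 of the 18 and 3 of the 15. The summed cardiomyocyte markers were 109000 to 123000 CPM in nonpregnant and 104000 to 114000 CPM in postpartum hearts. Mast cell markers had a high median, 0.88 over 6 tested genes, of which 5 had a positive change and none passed. The proteases were low: Mcpt4 had 0.607, 0.084 and 0.317 CPM against 1.43, 1.39 and 1.49 CPM (adjusted p = 0.0692). Tpsb2, a tryptase, had 0.363 to 0.464 CPM against 0.817 to 1.27 CPM (adjusted p = 0.156). The groups of Cpa3, Cma1, Kit (3.45 to 8.42 against 5.35 to 7.01 CPM) and Hdc overlapped. Hdc leaned lower (1.77 to 2.36 against 1.52 to 1.91 CPM). The early growth response genes varied within the postpartum group: Egr1 had 14.2, 15.6 and 17.4 CPM in nonpregnant and 106, 15.0 and 25.1 CPM in postpartum hearts, and Egr2 0.749, 0.210 and 0.363 CPM against 5.72, 0.852 and 0.681 CPM. Tfrc, the transferrin receptor for iron uptake, had 29.4, 71.6 and 53.6 CPM against 101, 106 and 121 CPM (adjusted p = 0.235).

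On the Western diet the same comparison called 91 genes (0.588% of those tested), and 2 of the 37, Tnc and Rnf166, were among them. Of the 37 genes, 35 had the same sign on both diets, and 16 had an unadjusted p below 0.05 on the Western diet, against 14.7% of all genes. Since genes were picked for passing on 1 diet, a larger change there is partly fixed by the choice: the 32 genes called higher on the control diet had medians of 0.60 there and 0.21 on the Western diet, and the 55 called higher on the Western diet had 0.54 there and 0.08 on the control diet. Tnc was higher there too, with 1.12, 1.21 and 1.06 CPM in nonpregnant and 2.49, 4.55 and 3.76 CPM in postpartum Western diet hearts (log2 change 1.67, adjusted p = 0.0271). Rnf166 was lower there too (log2 change -0.40 on both diets, adjusted p = 0.0324 on the Western diet). The difference between diets in these changes was -0.17 (SE 0.40) for Tnc and 0 (SE 0.10) for Rnf166. The 6 collagen chain genes, chosen in the same way, had medians of 0.74 and 0.13. All 8 fibrillar collagens tested, passed or not, had medians of 0.71 on the control and 0.08 on the Western diet. Col1a1 had 70.5, 87.2 and 76.5 CPM in nonpregnant and 78.2, 100 and 73.9 CPM in postpartum Western diet hearts. Serpinh1 stood at 222, 207 and 211 CPM and then 221, 198 and 187 CPM, so its log2 change was -0.08 there. Cdca3 had 0.687, 0.946 and 0.844 CPM against 0.980, 1.14 and 0.856 CPM, and Ifi27l2a 17.0, 18.7 and 17.4 CPM against 19.1, 23.0 and 12.8 CPM. Among the genes just outside the threshold, Col3a1 had 139, 188 and 156 CPM and 159, 187 and 137 CPM on the Western diet, a log2 change of 0.00, while Thbs1 had 4.21, 3.25 and 4.57 CPM and 17.3, 15.7 and 11.2 CPM (log2 change 1.88, adjusted p = 0.0271).

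Whether the change differed between diets was tested by the interaction, the control diet change minus the Western diet change. By edgeR none of the 15476 genes passed (0%), 1390 had an unadjusted p below 0.05, and DESeq2 called 43. Among the 37 genes 28 had an unadjusted interaction p below 0.05; this count carries no weight of its own, since the genes were picked by the control diet contrast that the interaction contains. The smallest adjusted interaction p among them was that of Serpinh1 (difference 0.56, SE 0.09, adjusted p = 0.234). Outside the 37, Col16a1 had a difference of 0.83 (SE 0.17, adjusted p = 0.35), with 9.14, 11.4 and 10.2 CPM in nonpregnant and 8.61, 9.19 and 8 CPM in postpartum Western diet hearts. Rreb1, a zinc finger transcription factor, had 51.5, 54.1 and 57.6 CPM against 44.8, 43.9 and 42.2 CPM on the control diet, and 44.1, 44.6 and 49.4 CPM against 51.3, 52.1 and 57.6 CPM on the Western diet. Myh14, a nonmuscle myosin heavy chain, also changed sign between diets (log2 change -0.28 on the control and 0.38 on the Western diet, adjusted p = 0.35 for the difference).

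**Figure D4:**
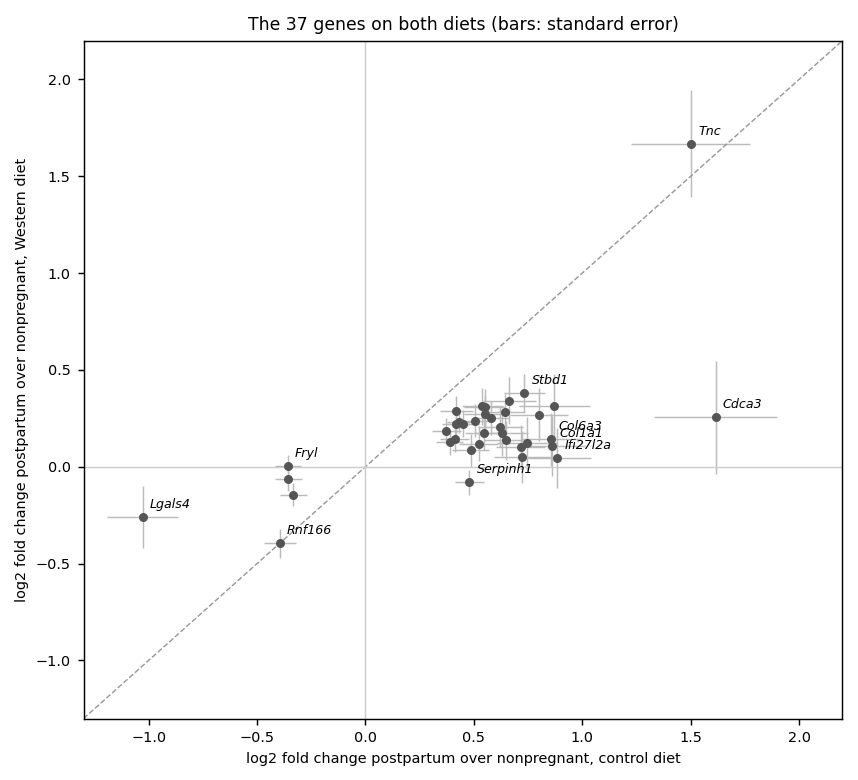
Log2 fold change after delivery of the 37 genes on the control diet (horizontal) and on the Western diet (vertical), with standard errors, and the dashed line marking equal change. Most points lie between 0.3 and 1 on the horizontal axis and below the dashed line; Tnc (1.5 and 1.67) and Rnf166 (-0.40 and -0.40) lie on or near it, and Serpinh1 (0.48 and -0.08) lies below 0 on the vertical axis.

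The set of 37 genes depended on single libraries. Without nonpregnant 1, 205 genes passed and 36 of the 37 were among them, and without postpartum 2, 55 passed with 32 of the 37. Without nonpregnant 2 or postpartum 1 no gene passed at the adjusted threshold, although 1502 and 1431 genes had an unadjusted p below 0.05. Without nonpregnant 3 only Stbd1 passed. Without postpartum 3, the library with fat cell RNA, 1 gene passed, the predicted gene Gm42047, which was not among the 37, and without both postpartum 3 and nonpregnant 1, 74 passed with 24 of the 37. The Western diet libraries enter through the shared scaling and estimate of spread and through the filter that decides which genes are tested. Without Western diet nonpregnant 2 the count was 9 and without Western diet nonpregnant 3 it was 17. With the 6 control diet libraries alone 6 genes passed: C1qb, Serpinh1, Adamts2, Tubb2a and Ifi27l2a of the 37, and Tnfrsf12a. In each of these fits all 37 genes kept their direction, which their lack of overlap between groups all but fixes in advance. The change of Serpinh1 stayed between 0.46 and 0.51 when any 1 control diet library was left out. That of Col1a2 stayed between 0.58 and 0.94 and that of Tnc between 1.20 and 1.67.

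**Figure D5:**
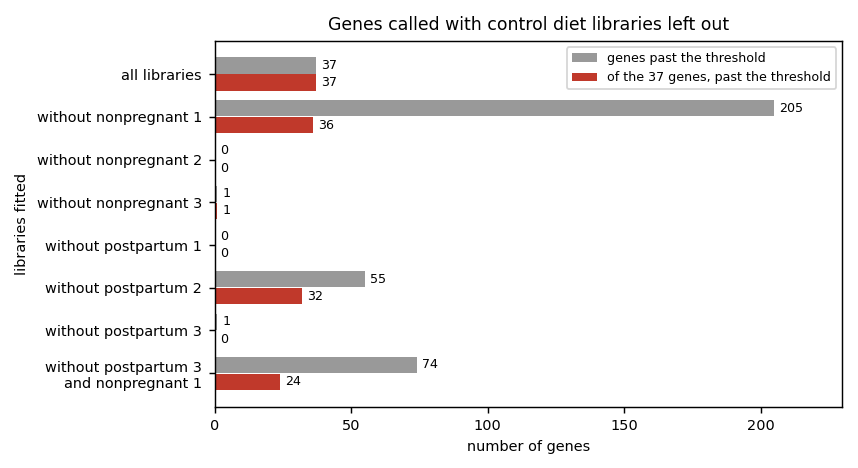
Number of genes past the threshold (grey) and, among them, of the 37 genes (red) when control diet libraries are left out, with bars from 0. The counts run from 0 without nonpregnant 2 or postpartum 1 to 205 without nonpregnant 1.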

How the data were processed

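RNA of 12 mouse heart libraries, 3 per group, was measured by sequencing. Per the labels, RNA came off a Qiagen RNeasy kit and was turned into libraries by NEBNext Ultra RNA chemistry. The authors aligned and counted reads with STAR 2.5.2b and featureCounts (Subread 1.5.2) on GRCm38 (mm10), after FastQC, per the submitters' processing notes. Which strand setting and annotation release they used is not given in the sources used here. The authors deposited unnormalized read counts, 1 value per gene and library.

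Of 49315 genes, 15476 passed edgeR's filterByExpr (minimum count 10, minimum total 15) and 33839 did not; 345 genes had no symbol and took at most 0.0248% of counts. Counts were scaled by TMM and fitted with edgeR 4.0.16 (R 4.3.3, quasi-likelihood F test, two-sided) on all 12 libraries with 1 mean per group, so the Western diet libraries also enter the scaling, the filter and the estimate of spread. The change is postpartum minus nonpregnant on the control diet, as log2 with its standard error; the interaction subtracts the same change on the Western diet. P-values were adjusted by Benjamini-Hochberg over all genes tested, with a threshold of 0.05. CPM and the limits of a count of 0 use TMM-scaled totals. Groups come from the labels.

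On simulated counts (15308 genes tested) the test recovered 31 of 67 genes changed 1.5-fold and 53 of 67 changed 2-fold, with 6 calls among unchanged genes. These figures describe the simulated counts only. They were not shown to hold for the real libraries, some of which stood apart from their groups. Replicate libraries differed by more than sampling noise (chi-square per degree of freedom at least 3.76).

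Genes named are those past the threshold, the 10 nearest to it in each direction, up to 4 members of smallest p of each of 66 gene lists, the 10 of smallest p in the interaction and a few followed genes; other genes (cell type markers, overlapping genes, Gm42047, Tnfrsf12a) were named after their values were seen. Members and lists were chosen with earlier results of these data known. Alternatives were DESeq2 1.42.0, limma-voom (limma 3.58.1), other scalings and filters, the control diet alone, and leaving out libraries. Promoter windows came from RefSeq GRCm38.p6.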

Additional observations from a re-analysis of the deposited data

How the results depend on the processing

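All 37 genes kept their direction in every alternative that tested them, which their lack of overlap between groups all but fixes in advance. Without mitochondrial genes mt-Te had no value. The count of 37 genes became 37 with DESeq2's size factors, 36 with a filter of 1 CPM in 3 libraries, 34 with edgeR's robust option, 36 with limma-voom and 33 without mitochondrial genes. It became 744 (482 higher and 262 lower) with no filter on low counts, 184 (133 and 51) with DESeq2 and 6 with the control diet libraries alone, and 74 without postpartum 3 and nonpregnant 1. Leaving out 1 library at a time gave 0 to 205 genes; the fits without a Western diet library, added after seeing the data, gave 9 to 45. The share of higher calls was 86.5% in the test reported, 64.8% with no filter and 72.3% with DESeq2. For the difference between diets the count of 0 became 506 with no filter, 43 with DESeq2, 1 with the robust option and 1 without postpartum 3 and nonpregnant 1, and 0 to 53 with 1 library left out, the 53 being without Western diet postpartum 2. The cause was not tested. No paired analysis was possible because the labels give each library a number of its own. With 3 libraries a group a gene that did not pass is not shown to be unchanged, and a count of 0 still allows up to 0.0973 to 0.136 CPM.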
